A study of Mus musculus with 7 samples.

Results

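The liver is the main site where surplus amino acids are broken down, and 43 genes for enzymes of that breakdown are described here, out of 23366 genes in the tables. The members were taken by name, as a fixed list of enzymes that degrade tyrosine, tryptophan, histidine, glycine, serine, the branched-chain amino acids, proline, ornithine and cysteine, with 2 general transaminases. All 43 symbols were found, and all 43 passed the filter on low counts. RNA came from livers of C57BL/6 mice, an inbred laboratory strain, at 21 months of age (n = 3) and at 3 months (n = 4); the labels give no allele or treatment for either age, and no sex or feeding state. Polyadenylated RNA was sequenced with a strand-specific protocol, and the question is which transcripts differ between old and young adult livers. Whether each sample is a different animal is not given in the labels; p-values therefore reflect sample-to-sample spread, part of which could be technical.

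Degradation removes the amino group, often by a transaminase and not always as the first step. The carbon skeleton is taken apart to intermediates that enter gluconeogenesis, ketone production or the citric acid cycle. Several steps are known to be controlled at the level of RNA in liver: glucocorticoids and glucagon raise Tat, Tdo2 and Sds, and a high-protein diet raises many of the routes. The branched-chain route is instead controlled largely by phosphorylation of its dehydrogenase, which a kinase switches off and a phosphatase switches on.

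The libraries held 4724687 to 11143125 expected counts, of which the ribosomal RNA precursor Rn45s took 18.7% to 25.6%. The gap between transcript length and effective length was 35.4, 30.9 and 21.4 bases in 21-month replicates 1, 2 and 3. At 3 months it was 34.4 to 38.8 bases, so it was partly tied to age. The gap served as a covariate in 1 alternative fit, and is called fragment length below. Whether it follows the length of fragments or of reads was not tested. With this covariate 332 genes were called, against 1274 in the reported fit. Whether calls lost with it reflect this gap or lower precision was not tested. The members had between 49 and 16736 counts in a library. A count of 0 would allow up to 3 counts, or at most 0.635 CPM (counts scaled to library size by TMM), so none of the members was near the detection floor; this covers counting error only. Hepatocyte products summed to 92897 to 106905 TPM (a level scaled for library size and transcript length) at 21 months and 71769 to 96623 TPM at 3 months. Of the 12 tested, 1 was called higher, Alb, which averaged 53929 TPM at 21 months and 34963 TPM at 3 months (edgeR adjusted p = 0.0275). Apoa1 and Fga were called lower (edgeR adjusted p = 0.0176 and 0.00976), and the median log2 fold change of the list was -0.09. Over all genes tested, 5.47% were called higher and 5.86% lower. Kidney markers summed to at most 0.10 TPM at 21 months and 0.81 TPM at 3 months. Of the other cell type lists, macrophage markers summed to 196 to 586 TPM at 21 months and 269 to 501 TPM at 3 months, and endothelial markers to 96.6 to 216 TPM at 21 months and 105 to 199.8 TPM at 3 months. The sums of 4 other lists were higher in every old sample in TPM. Stellate cell markers summed to 145 to 196 TPM at 21 months and 97.5 to 137 TPM at 3 months. B cell markers summed to 9.64 to 50.4 TPM at 21 months and 3.96 to 5.35 TPM at 3 months. Dcn of the stellate list and Igj of the B cell list were called higher (edgeR adjusted p = 0.00105 and 0.0426). Dcn alone averaged 115 TPM at 21 months and 65.1 TPM at 3 months. Of the 9 stellate markers 5 had a negative log2 fold change, and the median was -0.07. Neutrophil markers summed to 6.64 to 14.96 TPM at 21 months and 1.71 to 6.61 TPM at 3 months, and T and NK cell markers to 3.94 to 9.12 TPM at 21 months and 1.53 to 3.42 TPM at 3 months. These 2 sums rest on few counts: 0 of 5 neutrophil and 1 of 7 T and NK markers passed the filter on low counts. The 1 that passed, Cd4, was not called (log2 fold change -0.89, edgeR adjusted p = 0.384). In CPM the stellate and the T and NK sums overlapped between the ages. Lyve1 of the endothelial list and Sox9 of the bile duct list were called lower at 21 months (edgeR adjusted p = 0.0359 and 0.0102). Bile duct markers summed to 28.9 to 31.6 CPM at 21 months and 31.8 to 46.4 CPM at 3 months, and their sums overlapped in TPM. The part of these cells in the results was not tested.

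Among the 43 members, Acmsd alone passed the test between the ages, and most differences were small. Of the 43 members, 0 were called higher and 1 (2.33%) was called lower at 21 months when 11251 genes were tested in edgeR (quasi-likelihood F test, p adjusted by Benjamini-Hochberg); 12 members had an unadjusted p under 0.05, as did 26.6% of all genes tested, so that count is near the background. By the same test 11.3% of all genes tested were called, 5.47% higher and 5.86% lower. The single call was Acmsd, an enzyme of the tryptophan route. The median log2 fold change of the members, 21 months minus 3 months on TMM-scaled counts, was 0.03, and that of all genes tested was -0.0015. Of the members, 25 had a positive and 18 a negative log2 fold change. Because a p above the threshold does not show equal levels, 95% intervals were computed: for 37 members the whole interval lay within 1.5-fold in either direction, which held for 49.4% of all genes tested, many of them with fewer counts. The 6 members with wider intervals were Acmsd, Amt, Sdsl, Dmgdh, Oat and Csad. The ages did not overlap in CPM for 8 members, 6 higher and 2 lower, or 18.6%, where 24.2% of all genes tested did not overlap. Both shares were below those of the whole table, and the difference between shares was not tested.

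**Figure D1:**
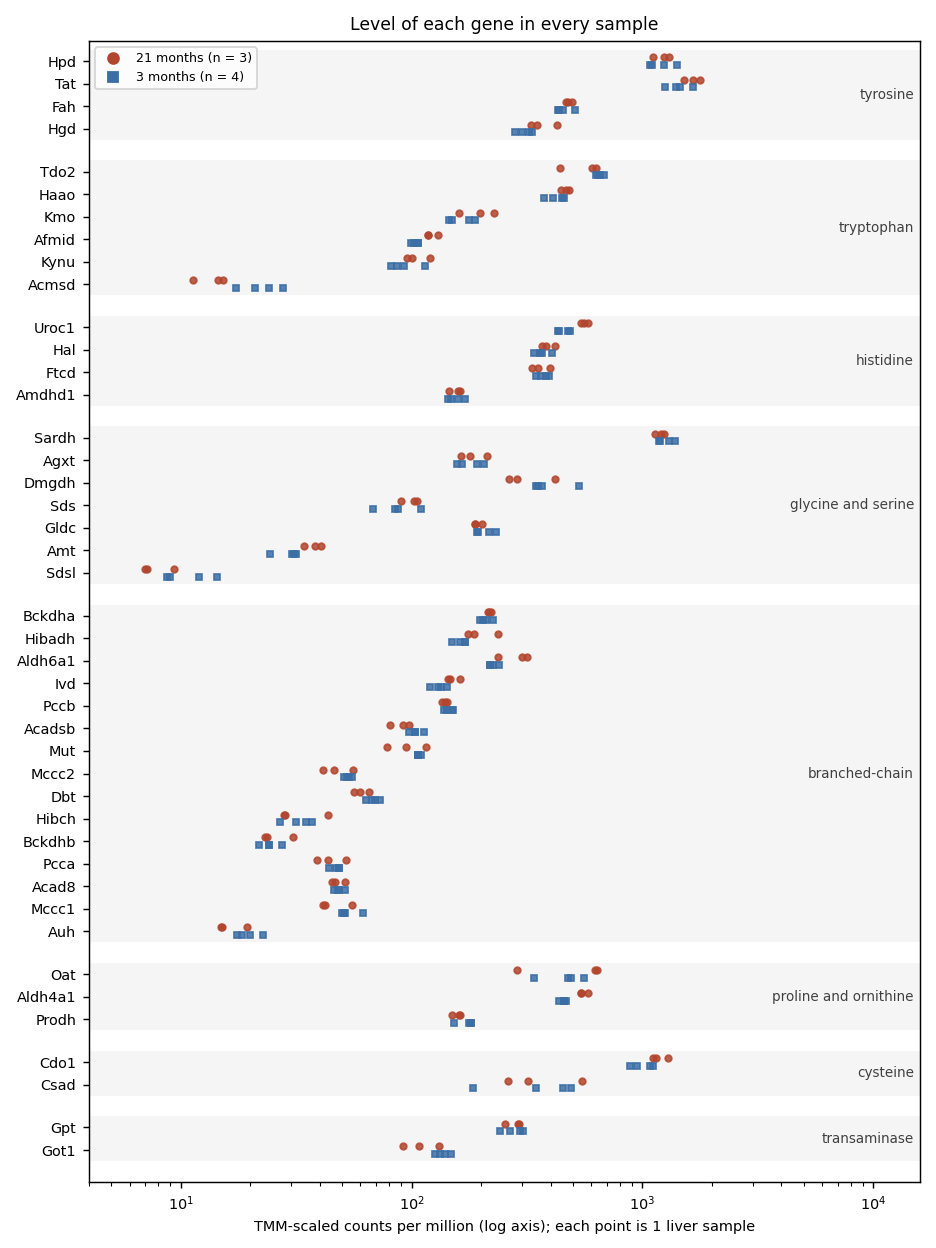
Level of each of the 43 genes in every liver sample, in TMM-scaled CPM on a log axis, grouped by route; red circles are the 3 samples at 21 months and blue squares the 4 samples at 3 months. The ages overlap for 35 of the 43 genes, and Acmsd, at the foot of the tryptophan group, lies to the left at 21 months.

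**Figure D2:**
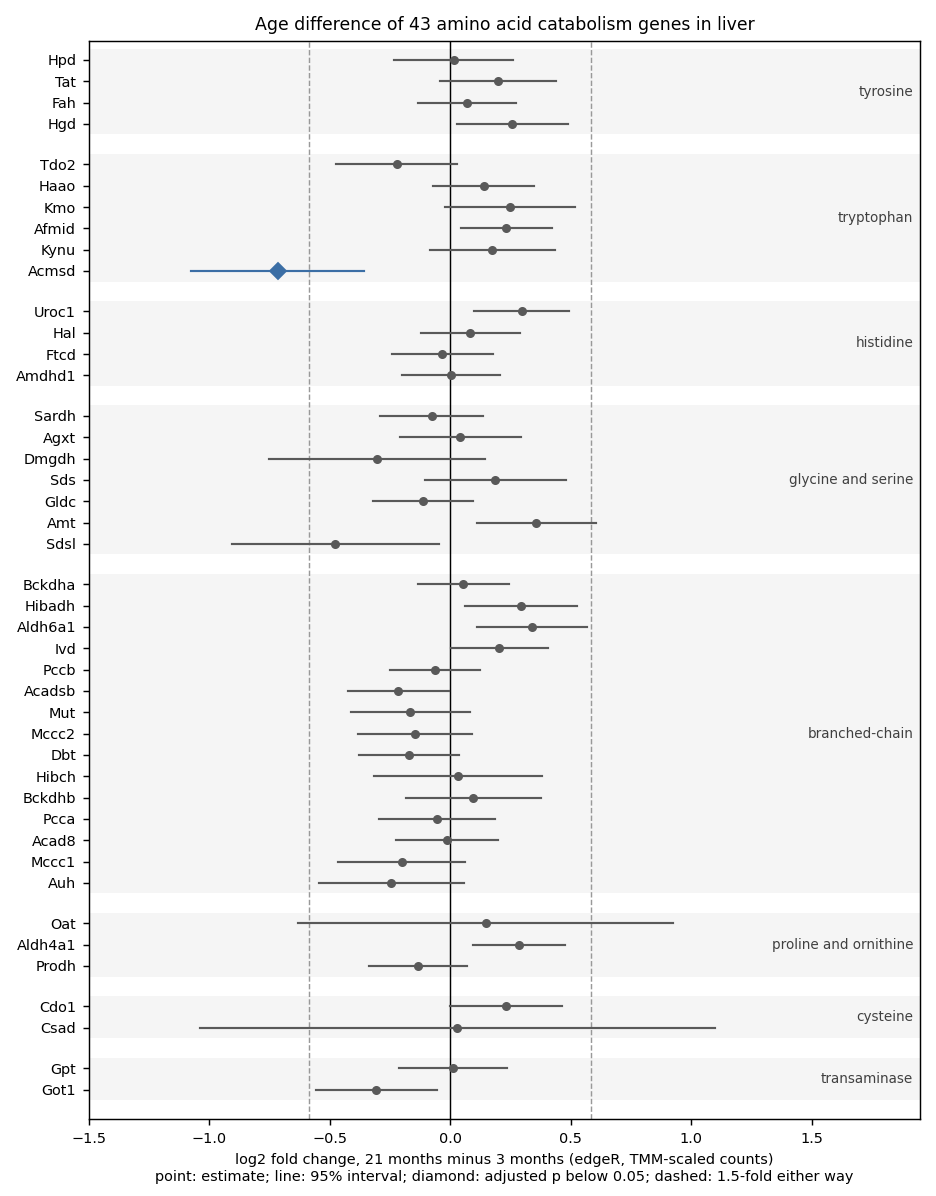
Log2 fold change of each gene, 21 months minus 3 months, with its 95% interval from edgeR; the diamond marks adjusted p below 0.05 and the dashed lines mark 1.5-fold either way. Acmsd is the only diamond, and the intervals of Oat and Csad are the widest.

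Compared per length over all 7 libraries, the most abundant transcripts were Hpd at 1819 TPM, Cdo1 at 1449 TPM and Tat at 1304 TPM. Tdo2 at 761 TPM and Haao at 743 TPM followed. Hpd encodes 4-hydroxyphenylpyruvate dioxygenase of the tyrosine route, and Cdo1 cysteine dioxygenase, which opens the breakdown of cysteine. The scarcest were Acmsd at 16.2 TPM and Sdsl at 16.4 TPM. In all, 28 members averaged above 100 TPM.

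The tyrosine route was the most abundant branch, and 0 of its 4 genes were called. Tat, tyrosine aminotransferase, which takes the first step, had 1649, 1513 and 1781 CPM in 21-month replicates 1, 2 and 3 and 1653, 1395, 1455 and 1249 CPM in 3-month replicates 1 to 4. The ages overlapped in Tat (log2 fold change 0.20 ± 0.11 SE, edgeR adjusted p = 0.290). Hpd averaged 1218 ± 96.4 CPM at 21 months and 1207 ± 157 CPM at 3 months (SD, n = 3 and 4), a difference of 0.01 on the log2 scale with a 95% interval from -0.23 to 0.26. Hgd, homogentisate dioxygenase, which opens the aromatic ring, had 428, 329 and 351 CPM at 21 months and 332, 280.1, 324 and 302 CPM at 3 months. Only 21-month replicate 2 fell inside the 3-month range of Hgd (log2 fold change 0.26 ± 0.11 SE, edgeR adjusted p = 0.143). Fah, fumarylacetoacetate hydrolase, the last step of the route, averaged 479.8 ± 12.9 CPM at 21 months and 457 ± 36.3 CPM at 3 months (edgeR adjusted p = 0.693).

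In the tryptophan route, which runs through kynurenine, the gene that changed stands at its branch point. Acmsd encodes the decarboxylase that takes the unstable product of Haao away from quinolinate, the precursor of NAD, and toward complete oxidation. It had 11.3, 15.2 and 14.5 CPM in the 21-month samples and 24.1, 17.4, 21.0 and 27.8 CPM in the 3-month samples, so that every 21-month value lay below every 3-month value. Acmsd fell 1.64-fold (log2 fold change -0.72 ± 0.17 SE, 95% interval -1.07 to -0.36, edgeR adjusted p = 0.0136). The call was made in 15 of 17 alternative analyses; it missed the threshold without 21-month replicate 3 (0.0508 by edgeR, adjusted) and without 3-month replicate 4 (0.0504), with log2 fold changes of -0.75 and -0.60. In bulk tissue, fewer cells of a type and less RNA per cell cannot be told apart. A gene that overlaps Acmsd in the GRCm38.p6 gene table, 2900009J06Rik, stayed at or below 0.365 CPM.

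The genes upstream of that branch point were not called. Tdo2, tryptophan dioxygenase, which sets the rate of the route, had 627, 441 and 607 CPM at 21 months and 645, 627, 679.7 and 657 CPM at 3 months. Replicate 2 was the low sample at 21 months, and replicate 1 reached the 3-month range (log2 fold change -0.22 ± 0.12 SE, edgeR adjusted p = 0.246). Afmid, the formamidase that makes kynurenine, had 129.8, 118 and 118 CPM at 21 months and 103, 99.4, 107 and 107 CPM at 3 months. The ages of Afmid did not overlap, yet the difference missed the threshold (log2 fold change 0.23 ± 0.09 SE, edgeR adjusted p = 0.105). Afmid overlaps Tk1 in the GRCm38.p6 gene table, and Tk1 had 16.4 to 28.1 CPM. Kmo, which hydroxylates kynurenine, averaged 196 ± 33.6 CPM at 21 months and 165 ± 21.2 CPM at 3 months. Kynu, kynureninase, averaged 105 ± 12.7 CPM at 21 months and 93.7 ± 14.3 CPM at 3 months, and Haao 464 ± 18.2 CPM at 21 months and 422 ± 37.4 CPM at 3 months. None of these 3 was called (edgeR adjusted p = 0.232, 0.393 and 0.405). Of 4 tested genes that make NAD from quinolinate, 0 were called; the first of them, Qprt, which uses quinolinate and was chosen after its values were seen, had 114, 114 and 102 CPM at 21 months and 134, 125, 130.3 and 133 CPM at 3 months (edgeR adjusted p = 0.0882). Every 21-month value of Qprt lay below the 3-month range.

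Histidine is broken down in 4 steps, and the genes of all 4 were measured. Hal, histidine ammonia-lyase, averaged 389 ± 25.8 CPM at 21 months and 368 ± 26.8 CPM at 3 months. Uroc1, urocanase, the next enzyme, had 559, 582 and 542 CPM at 21 months and 436, 429.6, 486 and 475 CPM at 3 months. The ages did not overlap in Uroc1, and its difference lay just above the threshold (log2 fold change 0.30 ± 0.09 SE, 95% interval 0.10 to 0.49, edgeR adjusted p = 0.0516). It passed in 6 of 17 alternative analyses. Amdhd1, imidazolonepropionase, was level at 155 ± 8.48 CPM at 21 months and 155 ± 12.3 CPM at 3 months, with a 95% interval of the difference from -0.20 to 0.20 on the log2 scale. Ftcd, which hands the last fragment of histidine to folate, averaged 362 ± 33.7 CPM at 21 months and 371 ± 22.2 CPM at 3 months (edgeR adjusted p = 0.876).

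The glycine and serine genes held the largest positive and, after Acmsd, the largest negative log2 fold change among the members, and 0 of 7 were called. Amt, the aminomethyltransferase of the glycine cleavage system, had 38.0, 34.4 and 40.4 CPM at 21 months and 30.8, 30.4, 24.5 and 31.5 CPM at 3 months. The ages did not overlap (log2 fold change 0.36 ± 0.12 SE, edgeR adjusted p = 0.0599), and Amt passed in 3 of 17 alternative analyses. Gldc, the decarboxylase of the same system, averaged 193 ± 7.49 CPM at 21 months and 209 ± 19.0 CPM at 3 months (edgeR adjusted p = 0.502). Sds, serine dehydratase, which turns serine into pyruvate, had 102, 106 and 89.9 CPM at 21 months and 110.2, 68.4, 87.6 and 84.4 CPM at 3 months, with overlap (edgeR adjusted p = 0.419). Sds overlaps Plbd2 in the GRCm38.p6 gene table, and Plbd2 had 69.6 to 95.5 CPM. Sdsl, a relative of Sds, was scarce, at 6.996, 9.36 and 7.14 CPM at 21 months and 8.94, 8.75, 14.4 and 12.01 CPM at 3 months. The 21-month replicate 2 of Sdsl exceeded 2 of the 3-month samples (log2 fold change -0.48 ± 0.20 SE, edgeR adjusted p = 0.142).

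Agxt, which detoxifies glyoxylate to glycine in peroxisomes and mitochondria, averaged 185 ± 25.1 CPM at 21 months and 179.999 ± 23.0 CPM at 3 months. Sardh, the mitochondrial enzyme that demethylates sarcosine to glycine, averaged 1194 ± 53.5 CPM at 21 months and 1259.8 ± 95.9 CPM at 3 months (edgeR adjusted p = 0.675). Dmgdh, which makes the sarcosine from dimethylglycine, had 419, 265 and 286 CPM at 21 months and 367, 352, 347 and 529 CPM at 3 months. Within each age 1 sample of Dmgdh stood well above the others, and its 95% interval ran from -0.75 to 0.15. A gene that overlaps Dmgdh in the GRCm38.p6 gene table, AW495222, stayed at or below 0.197 CPM.

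**Figure D3:**
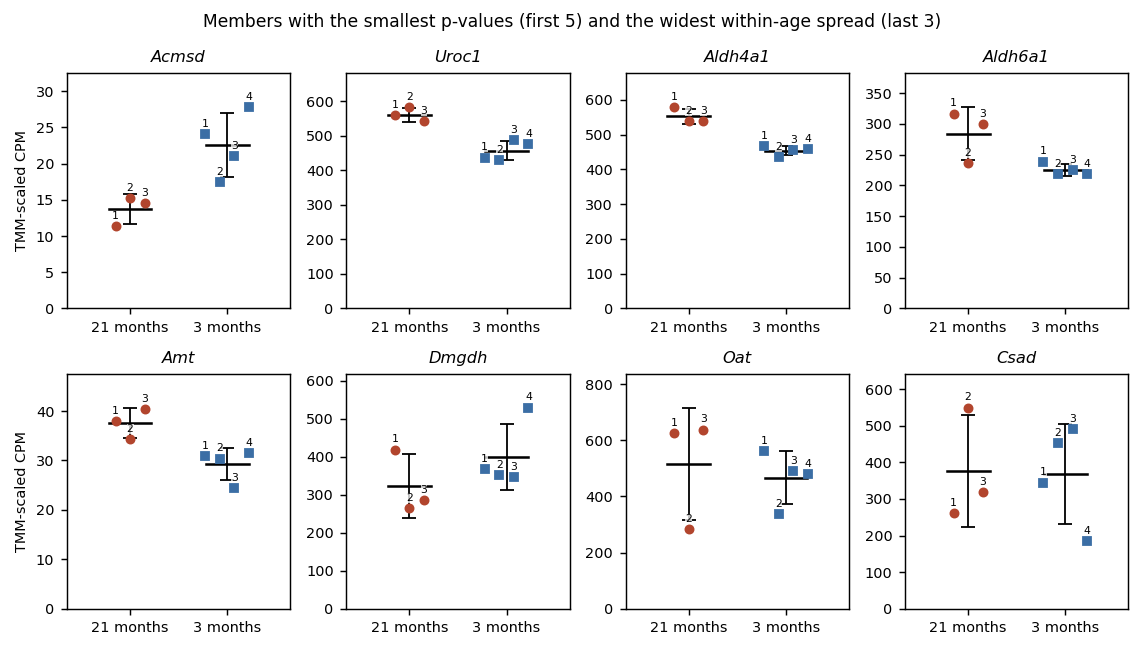
CPM of 8 members by sample, with replicate numbers beside the points, the mean as a bar and the SD as whiskers; red circles are 21 months (n = 3) and blue squares 3 months (n = 4). Acmsd, Uroc1, Aldh4a1 and Amt separate the ages, Aldh6a1 overlaps in 1 old sample, and Dmgdh, Oat and Csad vary more within an age than between ages.

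The branched-chain route was the largest group, with 15 members, of which 0 were called and all 15 had 95% intervals within 1.5-fold. The median log2 fold change was -0.06, with a range from -0.25 to 0.34. The dehydrogenase that commits branched-chain ketoacids to oxidation is built of subunits encoded by Bckdha, Bckdhb and Dbt. Bckdha had 219.9, 215 and 215 CPM at 21 months and 210.4, 198, 204 and 225 CPM at 3 months. Bckdhb averaged 25.9 ± 4.23 CPM at 21 months and 24.4 ± 2.37 CPM at 3 months, and Dbt 60.5 ± 4.44 CPM at 21 months and 68.3 ± 4.004 CPM at 3 months. Their log2 fold changes were 0.05, 0.09 and -0.17, with edgeR adjusted p = 0.756, 0.702 and 0.288.

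The genes that set the phosphorylation of this dehydrogenase, which are not members, were both higher in every old sample, and 1 passed the test. Ppm1k, the mitochondrial phosphatase that activates it, had 48.4, 49.6 and 49.0 CPM at 21 months and 33.4, 33.5, 32.6 and 33.4 CPM at 3 months. Ppm1k rose 1.47-fold (log2 fold change 0.56 ± 0.10 SE, edgeR adjusted p = 0.00219). Its pooled within-age SD of log2 CPM, 0.018, was the smallest of all 11251 genes tested. A spread that narrow, picked out of so many genes, may be partly chance. Bckdk, the kinase that inactivates the complex, had 11.2, 13.8 and 13.1 CPM at 21 months and 9.12, 9.70, 9.71 and 7.95 CPM at 3 months (log2 fold change 0.47 ± 0.15 SE, edgeR adjusted p = 0.0592). Dld, the shared last subunit, averaged 58.5 ± 14.5 CPM at 21 months and 67.6 ± 3.70 CPM at 3 months (edgeR adjusted p = 0.387). Without 21-month replicate 1, Bckdk was called higher (log2 fold change 0.55, edgeR adjusted p = 0.0283) and Dld lower (-0.40, 0.0329). Bckdk and Dld were chosen after their values were seen.

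**Figure D4:**
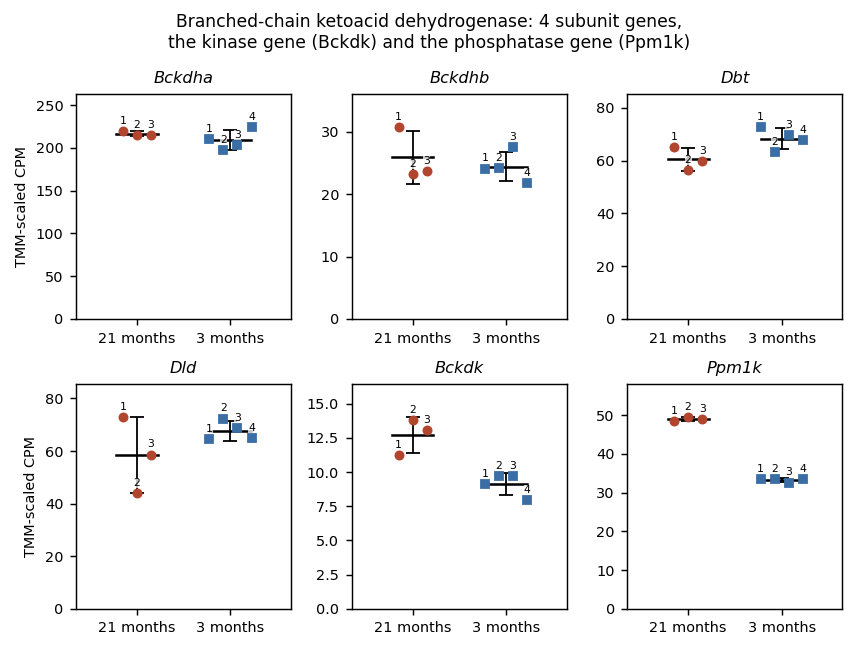
CPM of the branched-chain ketoacid dehydrogenase subunit genes and of its kinase and phosphatase genes by sample, drawn from 0, with replicate numbers, mean and SD; red circles are 21 months (n = 3) and blue squares 3 months (n = 4). Ppm1k lies at 48.4 to 49.6 CPM at 21 months and 32.6 to 33.5 CPM at 3 months, while the subunit genes overlap between ages.

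Past the dehydrogenase the route splits by amino acid. For valine, Aldh6a1, methylmalonate semialdehyde dehydrogenase, had 317, 236 and 299.9 CPM at 21 months and 239, 218, 225 and 218 CPM at 3 months. Only 21-month replicate 2 fell inside the 3-month range of Aldh6a1 (log2 fold change 0.34 ± 0.11 SE, edgeR adjusted p = 0.0536), and the gene passed in 7 of 17 alternative analyses, among them the one without that replicate (edgeR adjusted p = 0.00833). Hibadh, the valine enzyme just before it, had 236, 176 and 186 CPM at 21 months and 162, 149.5, 170.1 and 170.4 CPM at 3 months. The ages of Hibadh did not overlap (log2 fold change 0.29 ± 0.11 SE, edgeR adjusted p = 0.0977). Hibch and Acad8, which act earlier on valine, averaged 33.2 ± 8.74 and 47.8 ± 3.41 CPM at 21 months and 32.6 ± 4.39 and 48.4 ± 2.302 CPM at 3 months.

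For leucine, Ivd, isovaleryl-CoA dehydrogenase, had 163, 147 and 144 CPM at 21 months and 142, 119.8, 134 and 129.998 CPM at 3 months. Its ages did not overlap (log2 fold change 0.20 ± 0.09 SE, edgeR adjusted p = 0.185). The leucine enzymes that follow had log2 fold changes on the other side of 0: Mccc1 and Mccc2, the subunits of one carboxylase, averaged 46.3 ± 7.85 and 47.8 ± 7.22 CPM at 21 months and 53.5 ± 5.60 and 53.1 ± 1.74 CPM at 3 months. Auh, the hydratase after them, averaged 16.5 ± 2.47 CPM at 21 months and 19.7 ± 2.26 CPM at 3 months. None of the 3 was called (edgeR adjusted p = 0.326, 0.436 and 0.293). For isoleucine, Acadsb, a short-branched-chain acyl-CoA dehydrogenase, had 91.4, 80.6 and 97.0 CPM at 21 months and 113, 103, 97.3 and 103 CPM at 3 months. Every old sample of Acadsb lay below every young one, by a narrow margin (log2 fold change -0.22 ± 0.10 SE, edgeR adjusted p = 0.173).

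Propionyl-CoA from valine and isoleucine is taken to succinyl-CoA by the carboxylase of Pcca and Pccb and by Mut, methylmalonyl-CoA mutase. Pcca averaged 45.0 ± 6.66 CPM at 21 months and 47.0 ± 2.22 CPM at 3 months, and Pccb 139 ± 3.97 CPM at 21 months and 146 ± 5.66 CPM at 3 months. Mut had 115, 78.2 and 94.2 CPM at 21 months and 107, 109.8, 107 and 107 CPM at 3 months. The young values of Mut were nearly identical, and the old ones lay on both sides of them (edgeR adjusted p = 0.393).

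Order within the old group recurred across the members. Replicate 1 was the highest 21-month sample for 29 of 43 members (67.4%), against 38.6% of all genes tested, and for 13 of the 15 branched-chain genes. Replicate 2 was the lowest for 27 members (62.8%), against 35.3% of all genes tested. Replicate 1 also had the lowest macrophage and endothelial marker sums of the old samples, 196 and 96.6 TPM, while replicate 2 had the highest, 586 and 216 TPM; their part in the order was not tested. Without 21-month replicate 1 the median log2 fold change of the members was -0.04, and Got1, Mccc1 and Mut were called lower beside Acmsd (edgeR adjusted p = 0.00791, 0.0470 and 0.0389). Without 21-month replicate 2 the median was 0.08, and Aldh6a1, Amt and Hibadh were called higher (edgeR adjusted p = 0.00833, 0.0419 and 0.0419).

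Proline and ornithine share the product glutamate semialdehyde, which Aldh4a1 oxidises to glutamate. Aldh4a1 had 578, 539 and 539.9 CPM at 21 months and 467, 436, 455 and 458 CPM at 3 months. The ages did not overlap, and the spread within an age was among the narrowest of the members (log2 fold change 0.28 ± 0.09 SE, 95% interval 0.09 to 0.47, edgeR adjusted p = 0.0522). Aldh4a1 passed in 6 of 17 alternative analyses. Prodh, proline dehydrogenase, which starts the route, averaged 158 ± 6.78 CPM at 21 months and 173 ± 13.8 CPM at 3 months (log2 fold change -0.13 ± 0.10 SE, edgeR adjusted p = 0.407).

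Oat, ornithine aminotransferase, and Csad, which decarboxylates cysteine sulfinate on the way to taurine, stood apart by their spread. Oat had 624, 285 and 638 CPM at 21 months and 560.4, 337, 491 and 478 CPM at 3 months, the lowest sample of each age being replicate 2. Csad had 262, 549 and 319 CPM at 21 months and 345, 453, 491 and 185 CPM at 3 months. Csad overlaps Zfp740 in the GRCm38.p6 gene table, and Zfp740 had 16.1 to 25.7 CPM. The pooled within-age SD of log2 CPM was 0.60 for Csad and 0.48 for Oat, where the median was 0.15 over the members and 0.20 over all genes tested. These ranked 263 and 662 among 11251 genes from the widest down. Neither separated the ages, and the 95% intervals ran from 0.486-fold to 2.14-fold for Csad and from 0.645-fold to 1.90-fold for Oat, so a change of 1.5-fold was not detectable in either. Cdo1, the step before Csad, had 1286, 1149.7 and 1107 CPM at 21 months and 884, 1112, 950.1 and 1079 CPM at 3 months (log2 fold change 0.23 ± 0.11 SE, edgeR adjusted p = 0.191).

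The general transaminases were Got1, which moves amino groups between aspartate and glutamate in the cytosol, and Gpt, which does so for alanine. Got1 had 131, 108 and 91.4 CPM at 21 months and 139, 126, 133 and 148 CPM at 3 months. Only 21-month replicate 1 reached the 3-month range (log2 fold change -0.31 ± 0.12 SE, edgeR adjusted p = 0.104). Gpt averaged 279 ± 22.4 CPM at 21 months and 277 ± 28.6 CPM at 3 months, with a 95% interval from -0.21 to 0.23 on the log2 scale.

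Set side by side, the median log2 fold changes on TMM-scaled counts were 0.13 for tyrosine, 0.16 for tryptophan, 0.04 for histidine, -0.08 for glycine and serine, -0.06 for branched-chain, 0.15 for proline and ornithine, 0.13 for cysteine and -0.15 for the transaminases. On log2(TPM + 1) they were 0.26, 0.28, 0.17, 0.05, 0.06, 0.20, 0.26 and -0.03 in that order, on a scale where the median of all genes tested lay at 0.10. The glycine and serine and the branched-chain medians lay below the median of all genes tested on both scales, so their signs follow the scaling. On that scale 74.1% of the calls over all genes were higher at 21 months, against 48.3% on TMM-scaled counts, and 7 members were called higher: Afmid, Aldh4a1, Aldh6a1, Amt, Hgd, Hibadh and Uroc1.

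The same dependence appeared in the summed level. Together the members made up 1.33% to 1.41% of all TPM at 21 months and 1.13% to 1.28% at 3 months, without overlap, a ratio of 1.15. In summed TMM-scaled CPM the ages overlapped, at 12538 to 14139 CPM at 21 months and 12114 to 13128 CPM at 3 months, a ratio of 1.05. The tyrosine route alone summed to 4294 to 4716 TPM at 21 months and 3672 to 4142 TPM at 3 months, and the branched-chain route to 1306 to 1443 TPM at 21 months and 1141 to 1277 TPM at 3 months. In CPM the ages overlapped for both.

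**Figure D5:**
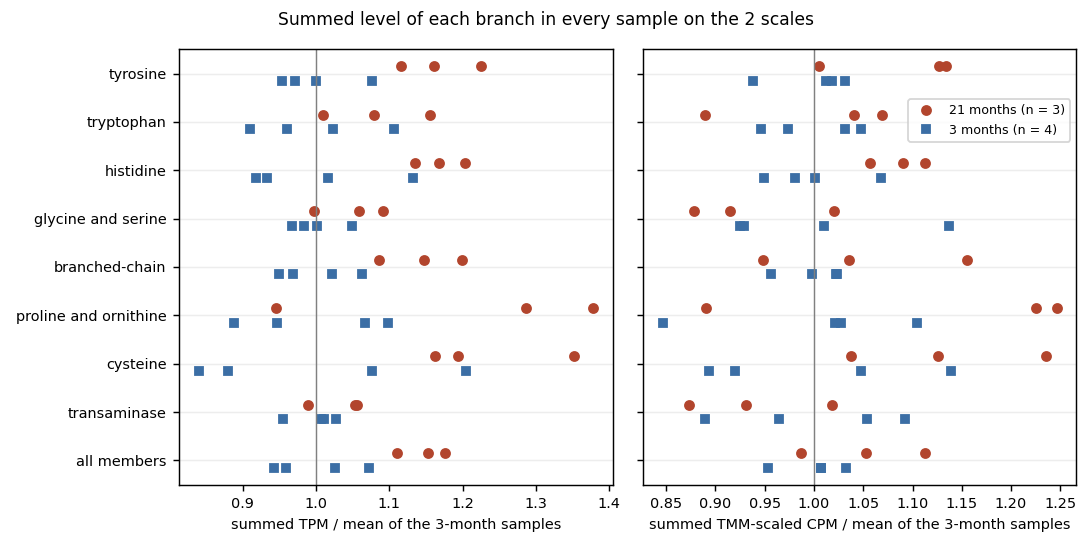
Summed level of each route and of all members in every sample, divided by the mean of the 3-month samples, as TPM on the left and as TMM-scaled CPM on the right; red circles are 21 months (n = 3) and blue squares 3 months (n = 4). All members together separate the ages in TPM, with a ratio of 1.15, and overlap in CPM, with a ratio of 1.05.

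Of 48 other enzymes of amino acid breakdown tested (52 listed), 2 were called higher and 0 lower, against 5.47% and 5.86% of all genes tested. The median log2 fold change was 0.08, and neither this list nor those below were tested against these shares. The 2 called were Ppm1k and Suox, sulfite oxidase, which clears the sulfite left from cysteine. Suox had 145, 124 and 147 CPM at 21 months and 106, 93.2, 109.4 and 100.5 CPM at 3 months (log2 fold change 0.45 ± 0.10 SE, edgeR adjusted p = 0.00978). Suox no longer passed once 21-month replicate 3 was left out (0.0502 by edgeR, adjusted) or fragment length was a covariate (0.117), and that covariate left Ppm1k called.

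Amino acid transporters were the next list, with the mitochondrial carriers Slc25a13, Slc25a15 and Slc25a22 among them. Of 18 transporters tested, 3 were called higher and 0 lower at 21 months, against 5.47% and 5.86% of all genes tested. Their median log2 fold change was 0.14. Slc7a2, a carrier of arginine and other cationic amino acids, had 243, 356 and 325 CPM at 21 months and 218, 174, 215 and 162 CPM at 3 months (log2 fold change 0.68 ± 0.14 SE, edgeR adjusted p = 0.00903). Slc3a1, the heavy chain of a cystine and dibasic amino acid transporter, rose 1.51-fold (edgeR adjusted p = 0.00811). Slc38a4, a neutral amino acid transporter, had 681, 673 and 680.2 CPM at 21 months and 543, 558, 536 and 538 CPM at 3 months, a rise of 1.25-fold (edgeR adjusted p = 0.0306; 0.0515 with the replicate numbers as a block). None of the 3 calls held with fragment length as a covariate (edgeR adjusted p = 0.146, 0.190 and 0.163 for Slc7a2, Slc3a1 and Slc38a4). Their log2 fold changes in that fit were 0.53, 0.38 and 0.33, against 0.68, 0.59 and 0.32 in the reported fit. The call of Slc38a4 was also lost without 21-month replicate 3 or any 1 of the 3-month replicates (0.0596 to 0.0864).

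Among 21 regulators of liver gene expression tested, 3 were called higher and 2 lower, against 5.47% and 5.86% of all genes tested. Their median log2 fold change was 0.06. Cebpb, a factor of the acute response and of gluconeogenesis, had 56.4, 64.7 and 53.5 CPM at 21 months and 34.1, 32.5, 34.8 and 40.6 CPM at 3 months, and rose 1.64-fold (edgeR adjusted p = 0.00128). The coactivator Ppargc1a rose 1.80-fold on low counts, at 4.93 to 7.54 CPM at 21 months and 2.37 to 3.73 CPM at 3 months (edgeR adjusted p = 0.0348). Foxo1, an insulin-controlled factor named here after its values were seen, rose 1.33-fold (edgeR adjusted p = 0.0459). Prox1 and Foxa3, hepatocyte factors, were lower: Prox1 averaged 70.3 ± 7.92 CPM at 21 months and 101.9 ± 5.11 CPM at 3 months (edgeR adjusted p = 0.00401), and Foxa3 35.4 ± 3.10 CPM at 21 months and 53.4 ± 10.7 CPM at 3 months (edgeR adjusted p = 0.0190). The calls of Ppargc1a and Foxo1 were lost on leaving out any 1 library other than 21-month replicate 1 (edgeR adjusted p = 0.0579 to 0.116 and 0.0580 to 0.140), and that of Foxa3 without 21-month replicate 3 (0.105) or 3-month replicates 1 (0.0530) or 4 (0.0619). With all libraries kept, DESeq2, limma voom, limma on log2(TPM + 1) and the fragment length covariate also ended the calls of Ppargc1a (adjusted p = 0.0507 to 0.177) and Foxo1 (0.0604 to 0.271), and library-size scaling that of Foxo1 (0.0545). The covariate ended that of Foxa3 (edgeR adjusted p = 0.145), and limma on log2(TPM + 1) that of Prox1 (0.0742).

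The 14 genes that respond to glucocorticoids or glucagon had a median log2 fold change of -0.18. Of them, 2 were called higher and 0 lower, against 5.47% and 5.86% of all genes tested. They were Ppargc1a and G6pc, glucose-6-phosphatase, which had 179, 197 and 195 CPM at 21 months and 108, 145, 145 and 117 CPM at 3 months (edgeR adjusted p = 0.00583; 0.0770 with fragment length as a covariate). The members known for such control were not among the calls. Of 14 periportal genes, markers of the zone where much amino acid breakdown takes place, 2 were higher, Alb (edgeR adjusted p = 0.0275) and Ctsc (0.00753), and 1 was lower, Cdh1 (0.0202), with a median log2 fold change of -0.01. Of 14 pericentral genes 1 was higher, Cyp2c37 (edgeR adjusted p = 0.000438), and 1 lower, Rnf43 (0.0239), with a median of -0.03. Beside both zonation lists stand 5.47% higher and 5.86% lower over all genes tested. Leaving out 21-month replicate 3 ended the calls of Alb, Cdh1 and Rnf43 (edgeR adjusted p = 0.0998, 0.0795 and 0.0612). So did 3-month replicate 4 for Alb and Rnf43 (0.0528 and 0.0750), 3-month replicates 1 and 3 for Alb (0.0852 and 0.0502), 3-month replicate 2 for Cdh1 (0.0533) and 21-month replicate 2 for Rnf43 (0.0748). The fragment length covariate also ended the calls of Alb, Cdh1 and Rnf43 (edgeR adjusted p = 0.142, 0.118 and 0.0703), and limma on log2(TPM + 1) those of Alb (0.0634) and Rnf43 (0.126). With the covariate the log2 fold changes of Alb, Cdh1 and Rnf43 were 0.56, -2.21 and -0.62. In the reported fit they were 0.52, -2.04 and -0.50.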

How the data were processed

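Liver RNA of 7 C57BL/6 samples was enriched for mRNA and made into strand-specific libraries, per the labels' protocols. The deposited tables hold expected counts and TPM per gene for each sample; TopHat, RSEM and edgeR are named in the submitters' processing notes, with no settings. The authors' expected counts were rounded to whole numbers here, filtered with filterByExpr (minimum count 10, minimum total 15), scaled by TMM and tested with edgeR 4.0.16 robust quasi-likelihood fits in R 4.3.3, 21 months minus 3 months, with Benjamini-Hochberg adjustment at 0.05. The deposited TPM values served for levels and, as log2(TPM + 1), for a limma 3.58.1 alternative; DESeq2 1.42.0 was another. Same-numbered samples of the ages deviated together (r = 0.107, 0.174 and 0.104 for replicates 1, 2 and 3, from the numbers in the labels), narrowly above the 0.1 required; 21-month replicate 1 with 3-month replicate 4, which share no number, had r = 0.159. A fit with the replicate numbers as a block, in which 3-month replicate 4 has no partner, was among the alternatives.

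The 43 members and the other gene lists were chosen with earlier results of these data known. All members were named, and up to 4 called genes of each other list, by adjusted p; genes outside that rule are marked as chosen after their values were seen. Gene overlaps came from the RefSeq GRCm38.p6 table, whose build differs from that of the files, so no coordinates are given.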

Additional observations from a re-analysis of the deposited data

Results flagged for a closer look

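In 6 of 79 values tested, 1 of the 4 samples at 3 months stood apart from the other three by Dixon's ratio, the gap to the nearest sample over the whole range, beyond its 95% critical value. Chance gives about 1 in 20 such cases. Amt had a ratio of 0.841, with replicate 3 low at 24.5 CPM. Dmgdh had 0.886, with replicate 4 high at 529 CPM, and Mccc1 0.872, also with replicate 4 high, at 61.8 CPM. Mut had 0.884, with replicate 2 high at 109.8 CPM, and Prodh 0.853, with replicate 2 low at 153 CPM. Ppm1k had 0.927, with replicate 3 low at 32.6 CPM, within a range from 32.6 to 33.5 CPM.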

How the results depend on the processing

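Acmsd was the only member called lower in every alternative that kept all libraries. Members called higher numbered 0 in the reported fit, and 2 with RLE scaling, 1 with library-size scaling, 3 with DESeq2, 2 with limma voom, 7 with limma on log2(TPM + 1), 1 with no filter, 3 with a minimum mean of 5 CPM and 4 without the Rn45s and Lars2 rows. Over all genes, 615 higher and 659 lower calls became 803 and 280 on TPM, and 179 and 153 with fragment length as a covariate. Leaving out 1 library gave 330 to 742 genes higher and 250 to 900 lower, and 0 to 3 members higher and 0 to 4 lower. With the replicate numbers as a block 560 genes were higher and 515 lower, and Acmsd remained called (log2 fold change -0.60, edgeR adjusted p = 0.0425); of the genes named, the block ended the calls of Slc38a4 and Rnf43. The histidine median was 0.17 on TPM. The following uncalled log2 fold changes turned sign. On TPM, where the median of all genes tested was 0.104 and all 6 lay below it, they were Ftcd 0.0871, Gldc 0.0150, Sardh 0.0498, Acad8 0.1029, Pcca 0.0511 and Pccb 0.0574. With the fragment covariate they were Hpd -0.0339, Amdhd1 -0.0015, Acad8 0.0397, Pcca 0.0158, Oat -0.0069 and Gpt -0.0563. With the block they were Amdhd1 -0.0350 and Csad -0.2462, with no filter Amdhd1 -0.0029, with library-size scaling Acad8 0.0135, and without Rn45s and Lars2 Acad8 0.0057. With 1 library left out they ranged from -0.0380 to 0.0981 for Hpd, -0.0349 to 0.0637 for Amdhd1, -0.1104 to 0.0411 for Ftcd, -0.0732 to 0.142 for Agxt, -0.0543 to 0.1833 for Bckdhb, -0.0748 to 0.0406 for Acad8, -0.2139 to 0.1574 for Hibch, -0.179 to 0.0518 for Pcca, -0.0169 to 0.4541 for Oat, -0.3284 to 0.2332 for Csad and -0.0492 to 0.0931 for Gpt. The cause was not tested. With 3 and 4 samples an age, changes in Oat, Csad and Dmgdh are the least precisely measured.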
